A study of Rattus norvegicus with 170 samples.

Results

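Fusion of hormone granules with the plasma membrane was followed through 9 of the 24113 genes in the table: *Snap25*, *Stx1a*, *Vamp2*, *Syt7*, *Syt4*, *Rab3a*, *Rab27a*, *Unc13a* and *Cplx2*. They were taken by name as known parts of that machinery. Islet endocrine cells store hormone in dense-core granules and release it when calcium rises, insulin from β-cells and glucagon from α-cells. Rab GTPases and their effectors bring the granule to the membrane, Munc13 proteins prime it, and the SNARE proteins of granule and plasma membrane zip together to fuse them. Synaptotagmins include the calcium sensors, and complexins bind the assembled SNAREs.

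The islets were hand-picked from wild type male Sprague Dawley rats at the age of 8 weeks and held for 48 h in medium with 5.5 mM glucose, 10% FBS and with 3 μM GNF4877 or, as vehicle, 0.1% DMSO. GNF4877 is an inhibitor of the kinases DYRK1A and GSK3β. Dispersed cells were caught singly on Fluidigm C1 chips made for cells of 10 to 17 μm, SMARTer cDNA and Nextera XT libraries were made from each, and single reads of 50 bp were taken on a HiSeq 1000. Each plate filled a lane of its own and no animal, culture or chip is named, so that treatment, chip and lane cannot be told apart and each treatment is 1 sample. Values are RPM, in which reads on a transcript are normalised by all mapped reads of that cell but not divided by transcript length, so levels are compared between groups of cells and not between genes.

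Of 170 cells, 86 came from DMSO-treated and 84 from GNF4877-treated islets. Ins1-high cells, those with *Ins1* of 1000 RPM or more, were 78 of the DMSO and 59 of the GNF4877 cells. The 59 were divided by *Ccnb1*, the cyclin of mitosis, into 11 cells with 10 RPM or more and 48 below. Cells with *Gcg* of 1000 RPM or more and *Ins1* below 1000 RPM, called α-cells, numbered 5 in DMSO and 18 in GNF4877. *Sst* or *Ppy* also reached 1000 RPM in 1 and 2 of them, so that this name too rests on *Gcg* alone. Nearest to the *Ins1* threshold were DMSO cells at 495 and 1784 RPM and GNF4877 cells at 813 and 1248 RPM. Around the *Ccnb1* threshold the nearest GNF4877 cells held 6.85 and 19.1 RPM. For *Gcg* the nearest cells held 865 and 5982 RPM in DMSO and 454 and 37011 RPM in GNF4877.

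Ins1-high DMSO cells had 241604 to 2499138 mapped reads with a median of 1235722.5, and Ins1-high GNF4877 cells 324416 to 2171567 with a median of 1424573. The medians were 961560 in the 5 DMSO α-cells (337705 to 1278191) and 1388772.5 in the 18 GNF4877 α-cells (421665 to 1983675). With the larger median depth, the Ins1-high GNF4877 cells nevertheless had reads of fewer genes, a median of 7031 against 8938, and 4933 against 6590 after each cell was thinned to 100000 reads on listed transcripts. In 7 cells, 4 from DMSO and 3 from GNF4877, only 2.65% to 18.9% of mapped reads fell on listed transcripts. Among the Ins1-high cells they are 3 from DMSO and 1 from GNF4877, and the shares of *Syt7* and *Rab3a* and the members' medians between treatments, by *Ccnb1* and between cell types within GNF4877 are also given without them.

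The Ins1-high cells held 6 of the 7 β-cell markers in the table at a mean of 1 RPM or more. *Mafa* was the exception, with a mean of 0.129 RPM in DMSO and no read in GNF4877. A second hormone at 1000 RPM or more was present in 25 of the 78 DMSO cells, *Gcg* in 22 of them, and in 4 of the 59 GNF4877 cells, so these cells are named by *Ins1* and not as β-cells. Mean *Gcg* was 44059 and 720 RPM, with medians of 107 and 74.1 RPM. Of 6 α-cell markers, 5 had a mean of 1 RPM or more in the Ins1-high DMSO cells (summed median 705 RPM) and 3 in the Ins1-high GNF4877 cells (summed median 859 RPM, *Irx2* at 0). The α-cells held 6 of 6, with a summed median of 413792 RPM in DMSO and 272800 RPM in GNF4877, and *Mafa* and *Nkx6-1* at 0 in both. Of the lists given here for other tissues, the summed median of Ins1-high cells in DMSO and GNF4877 was 157 and 153 RPM for duct markers. The mean of *Tubb3*, a tubulin of neurons, was 76.03 and 260 RPM. The summed median was 0 for acinar, endothelial and mesenchymal markers in both groups and below 1 RPM for immune markers. Means in DMSO and GNF4877 were 83.7 and 0.145 RPM for *Col1a1*, 9.75 and 3.01 RPM for *Esam* and 9.99 and 58.3 RPM for *Cd74*.

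As background for shares of cells, 5 cells had *Ins1*, *Gcg*, *Sst* and *Ppy* all below 1000 RPM, with a median of 637807 mapped reads. *Snap25* and *Vamp2* had a read in 5 of these 5 cells, at 1.57 to 38.9 RPM and 4.79 to 22.2 RPM, so these members are described mainly by level. *Syt4* and *Rab27a* had a read in 60.0% of them, and *Stx1a* and *Unc13a* in 20%. *Syt7*, *Rab3a* and *Cplx2* had none, which allows a share of up to 52.2%. Of the 5 cells, 3 are among those with few reads on listed transcripts, which lowers their RPM. In the other 2, *Syt7*, *Rab3a* and *Cplx2* had no read either. Intervals are exact Clopper-Pearson intervals at 95% and cover counting error only, since PCR reads without molecular identifiers are not independent molecules. Thinned shares leave out the 2 DMSO and 1 GNF4877 Ins1-high cells with under 100000 listed reads.

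The comparison between treatments asks how the release machinery of insulin-expressing cells stood after GNF4877. In Ins1-high cells of GNF4877-treated islets, the granule SNARE *Vamp2*, the granule GTPase *Rab3a* and the complexin *Cplx2* had means 2-fold or more below those in DMSO. Thus 3 of 9 members were lower and 0 higher, beside 17.5% lower and 9.68% higher among the 13609 genes with a mean of 1 RPM or more, a filter that 9 of 9 members passed. The log2 ratio of (mean RPM + 1) had a median of -0.61 over the members, 6 of them below 0, and of -0.10 over all genes. Without the cells with few listed reads the median was -0.64, with 3 lower and 0 higher. Without cells with a second hormone it was -0.27, with 3 lower and 2 higher, *Stx1a* and *Unc13a*. There a single cell held 72.2% of the summed GNF4877 RPM of *Stx1a*, and a single cell 84.0% of that of *Unc13a*. Both were read in fewer GNF4877 than DMSO cells, 10.9% against 18.9% and 14.5% against 41.5%. Because a mean of RPM rests on the highest cells, log2(RPM + 1) was also averaged over cells and the averages subtracted, here called the per-cell scale. On it 5 of 9 members were lower by 1 or more, *Vamp2*, *Syt7*, *Syt4*, *Rab3a* and *Cplx2*, and 0 higher, beside 24.2% and 1.77% of all genes. The median of all genes was itself -0.47 on this scale, and relative to it the members had a median of -1.22, with 7 of 9 below 0. Each treatment is 1 sample, so no difference between them was tested.

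**Figure D1:**
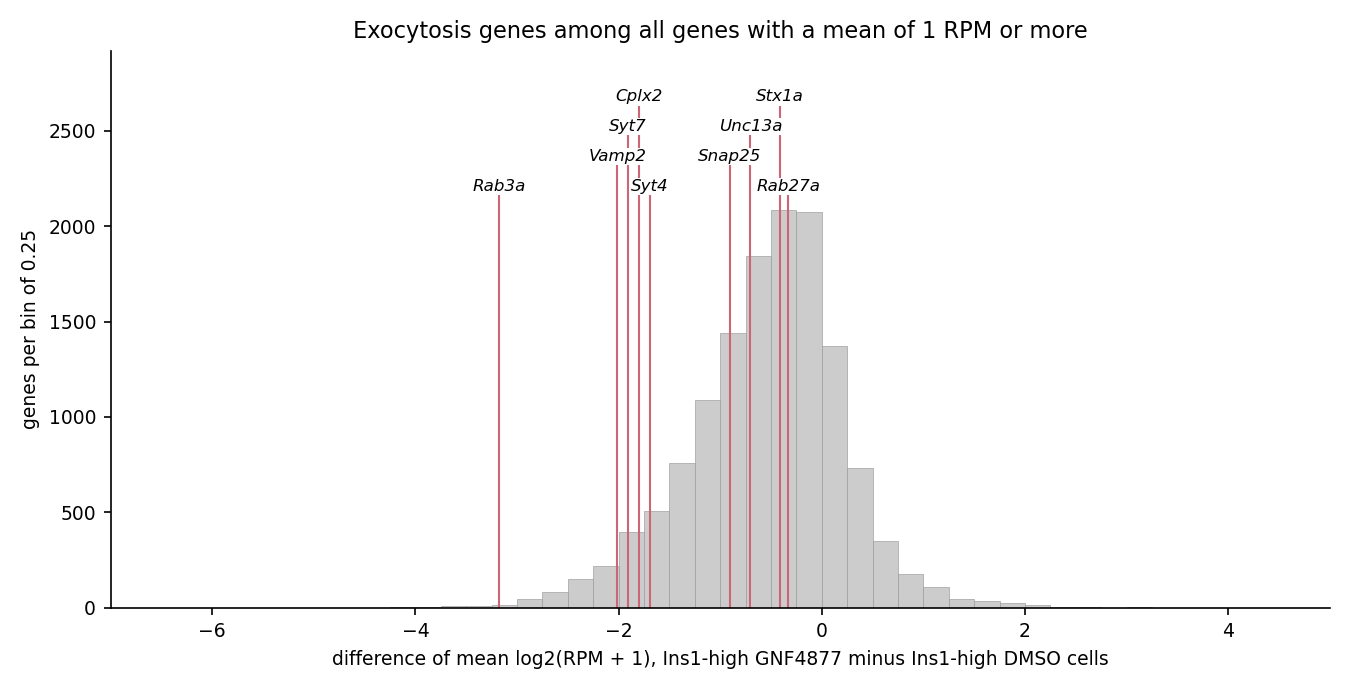
Histogram of the per-cell difference (mean log2(RPM + 1) in GNF4877 minus that in DMSO, Ins1-high cells) over 13609 genes (vertical axis: genes per bin), with a line for each of the 9 exocytosis genes. *Rab3a* lies farthest left at -3.18, where 0.213% of genes were lower, and *Rab27a* and *Stx1a* lie near the median of all genes at -0.47.

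Of the 3 SNARE members, *Vamp2*, which sits on the granule, showed the largest difference. It ranged from 1.51 to 218 RPM with a median of 57.99 RPM in the 78 DMSO cells, and from 0 to 125 RPM with a median of 11.9 RPM in the 59 GNF4877 cells. The groups overlapped, but 51 of the 59 GNF4877 cells lay below the DMSO median and 10 DMSO cells lay above every GNF4877 cell. Mean levels were 65.3 and 25.7 RPM, a log2 ratio of -1.31, and the difference of mean log2(RPM + 1) was -2.01, with 3.85% of genes lower. A level of 10 RPM or more was held by 87.2% of DMSO and 52.5% of GNF4877 cells, and by 4 of the 5 hormone-low cells, whose range of 4.79 to 22.2 RPM includes the GNF4877 median. After thinning, 90.8% (81.9% to 96.2%) of DMSO and 56.9% (43.2% to 69.8%) of GNF4877 cells had a read of *Vamp2*. A read was also found in 2 of the 2 thinned hormone-low cells, so these shares have no clear background.

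*Snap25*, a SNARE of the plasma membrane, was high in most cells of both treatments. Its range was 2.71 to 1092 RPM (median 346 RPM) in DMSO and 0 to 1497 RPM (median 246 RPM) in GNF4877. The ranges overlapped almost fully, with a tail of GNF4877 cells at low levels. The log2 ratio of the means, 302 and 374 RPM, was -0.31, and the per-cell difference of -0.90 was -0.43 relative to the median of all genes. *Stx1a*, the syntaxin that pairs with it, was read in 30.8% (20.8% to 42.2%) of DMSO cells and 13.6% (6.04% to 24.98%) of GNF4877 cells. The 1 of 5 hormone-low cells with a read held 0.959 RPM, but only 3.86% of its mapped reads fell on listed transcripts. The 8 GNF4877 cells with a read held a median of 27.3 RPM. At equal depth the shares were 18.4% and 10.3%, with overlapping intervals. Its higher GNF4877 mean, 8.36 against 5.87 RPM (log2 ratio 0.45), came from GNF4877 cell 1, whose 338 RPM made up 68.6% of the sum, and without that cell the ratio was -0.90.

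The synaptotagmins *Syt7* and *Syt4* were both lower on the per-cell scale, in different ways. *Syt7*, a synaptotagmin of high calcium affinity with a role in insulin and glucagon release, was read in 73.1% (61.8% to 82.5%) of DMSO cells but only 18.6% (9.69% to 30.9%) of GNF4877 cells. The shares were 53.9% (42.1% to 65.5%) and 15.5% (7.35% to 27.4%) at equal depth, and 74.7% and 18.97% without the cells with few listed reads. *Syt7* levels ran from 0 to 124 RPM around a median of 8.22 RPM in DMSO, and from 0 to 226 RPM around a median of 0 in GNF4877. Most GNF4877 cells had no read. The 11 with a read held a median of 46.3 RPM, above the 14.4 RPM of the 57 DMSO cells with a read. For that reason the log2 ratio of the means (11.05 and 18.1 RPM) was only -0.67, against a per-cell difference of -1.91. Without GNF4877 cell 64, the highest, the ratio was -1.20.

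Part of the DMSO cells with *Syt7* also held glucagon RNA. It was read in 22 of the 22 Ins1-high DMSO cells with *Gcg* of 1000 RPM or more (median 22.2 RPM) and in 60.4% (46% to 73.5%) of the 53 without a second hormone. The 55 GNF4877 cells without a second hormone stood at 20% (10.4% to 32.97%), and the median gene was read in 62.3% of these DMSO and 43.6% of these GNF4877 cells. The means of *Syt7* were close, 12.2 and 11.9 RPM, a log2 ratio of -0.04. How far second hormones account for the difference was not tested. *Stx1a* was read in 50.0% (28.2% to 71.8%) of the 22 DMSO cells and 18.9% (9.44% to 31.97%) of the 53, with intervals that overlap, beside 72.7% and 62.3% for the median gene.

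*Syt4*, a synaptotagmin that binds calcium poorly, was abundant in both treatments. In DMSO it ranged from 1.51 to 3220 RPM (median 623 RPM), and in GNF4877 from 0 to 1943 RPM (median 326 RPM). Most cells overlapped, with 41 of 59 GNF4877 cells below the DMSO median and a set of low GNF4877 cells that had almost no counterpart in DMSO: 98.7% of DMSO and 83.1% of GNF4877 cells reached 10 RPM. The means of 741 and 485 RPM gave a log2 ratio of -0.61, and the per-cell difference was -1.69, or -1.22 relative to all genes.

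The Rab GTPases of the granule diverged. *Rab3a*, which cycles on and off granules near the membrane, ranged from 0 to 428 RPM with a median of 53.8 RPM in DMSO, and from 0 to 346 RPM with a median of 0 in GNF4877. A read was found in 89.7% (80.8% to 95.5%) of DMSO cells and 37.3% (25.04% to 50.9%) of GNF4877 cells, or 93.3% and 37.9% without the cells with few listed reads. Thinning gave 84.2% (74.04% to 91.6%) and 36.2% (23.99% to 49.9%). Each of the 22 GNF4877 cells with a read of *Rab3a* held 11.5 RPM or more. The median of these 22 was 48.4 RPM, against 74.9 RPM in the 70 DMSO cells with a read. Of the 70, 65 held 10 RPM or more. A cell without a read may still hold the RNA. Means of 85.6 and 27.1 RPM gave a log2 ratio of -1.62. The per-cell difference was -3.18, and 0.213% of all genes were lower.

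*Rab27a*, through which the effector granuphilin docks insulin granules, had a higher mean but a lower per-cell value. It ranged from 0 to 577 RPM (median 122 RPM) in DMSO and from 0 to 1166 RPM (median 126 RPM) in GNF4877, with 27 of the 59 GNF4877 cells below the DMSO median. The distributions overlapped throughout, and 6 GNF4877 cells lay above every DMSO cell. Its mean was 209 RPM in GNF4877 and 162 RPM in DMSO, a log2 ratio of 0.37, while the per-cell difference was -0.33, or 0.14 relative to the median of all genes. The direction therefore depends on the scale. Fewer GNF4877 cells reached 10 RPM (76.3%, and 89.7% in DMSO), and at equal depth 75.9% (62.8% to 86.1%) and 90.8% (81.9% to 96.2%) had a read, with intervals that overlap.

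*Unc13a*, the priming factor, was read in 42.3% (31.2% to 54.02%) of DMSO cells and 15.3% (7.22% to 26.99%) of GNF4877 cells. The 1 of 5 hormone-low cells with a read held 26.9 RPM, so these shares have no clear background. At equal depth they were 28.9% (19.1% to 40.5%) and 10.3% (3.89% to 21.2%), and the intervals overlap. Levels reached 92.99 RPM in DMSO and 674 RPM in GNF4877 around medians of 0. That GNF4877 cell, number 93, held 84.0% of the summed GNF4877 RPM: the log2 ratio of the means (13.6 and 6.62 RPM) was 0.94 with it and -1.24 without it.

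*Cplx2*, the complexin, ranged from 0 to 931 RPM around a median of 17.97 RPM in DMSO and from 0 to 94.9 RPM around a median of 1.77 RPM in GNF4877. The ranges overlapped, with 48 of the 59 GNF4877 cells below the DMSO median. It was read in 91.03% (82.4% to 96.3%) and 64.4% (50.9% to 76.4%) of cells, and after thinning in 67.1% (55.4% to 77.5%) and 41.4% (28.6% to 55.1%). The log2 ratio of the means, 11.3 and 35.9 RPM, was -1.58, and -1.04 without DMSO cell 69, which held the 931 RPM. On the per-cell scale the difference was -1.79.

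Counted per cell, fewer members were read after GNF4877. The number of members with a read had a median of 7 of 9 in DMSO and 6 of 9 in GNF4877. At least 7 were read in 57 of 78 DMSO cells (73.1%) and 5 of 59 GNF4877 cells (8.47%), and 9 of 9 in 15 DMSO cells and 0 GNF4877 cells. At equal depth the medians were 6 and 4, and 48.7% and 1.72% of cells had at least 7. The 5 hormone-low cells had a median of 4 members with a read, and the 2 that were thinned one of 3.5. Detection was lower across the genome as well: the median gene was read in 65.4% of DMSO and 44.1% of GNF4877 cells, or 42.1% and 25.9% after thinning. The part of this general drop in the members' shares was not tested.

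**Figure D2:**
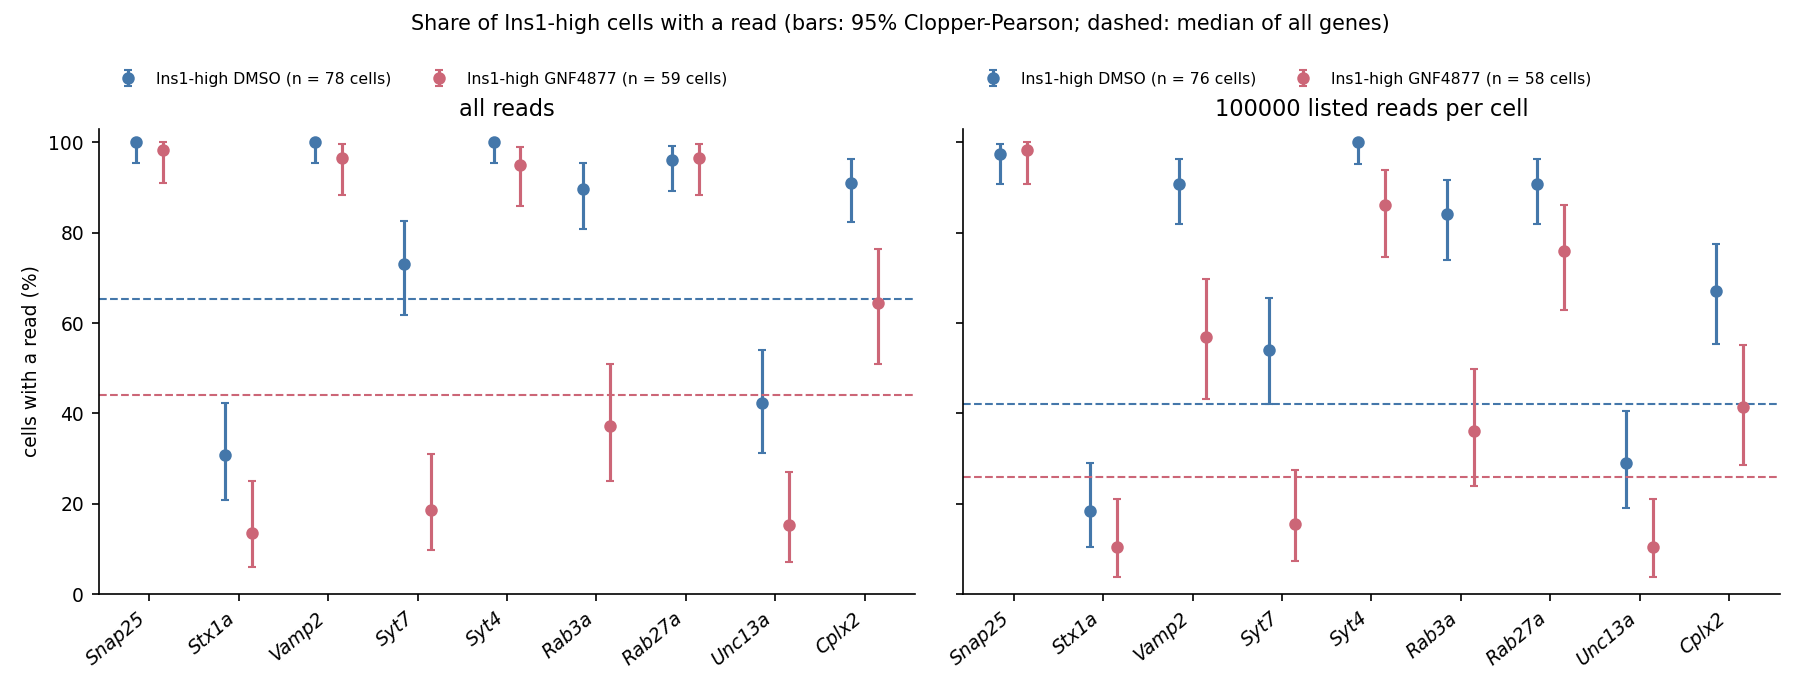
Percent of Ins1-high cells with a read of each member (points, with 95% Clopper-Pearson bars) in DMSO and GNF4877, with all reads and at 100000 listed reads per cell; dashed lines mark the median of all genes. *Syt7* (53.9% and 15.5%) and *Rab3a* (84.2% and 36.2%) are the widest apart at equal depth, while *Snap25* is near 100% in both.

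The wider exocytosis machinery was covered by a list of 82 further genes, 77 of them in the table and 59 at a mean of 1 RPM or more. Of the 59, 5 were 2-fold or more higher and 10 lower in Ins1-high GNF4877 cells, with a median log2 ratio of -0.16. These are 8.47% and 16.9%, near the 9.68% and 17.5% of all genes, so by mean the list did not stand out. On the per-cell scale 1 was higher and 19 lower by 1 or more (1.69% and 32.2%, beside 1.77% and 24.2%), with a median of -0.72. *Sytl4*, which encodes granuphilin, the Rab27a effector that docks insulin granules, was the 1 gene higher on both scales: its mean was 226 RPM in GNF4877 and 84.5 RPM in DMSO (log2 ratio 1.41, per-cell difference 1.42). *Myrip*, *Mlph* and *Exoc6* had log2 ratios of 1.66, 1.36 and 1.07 but per-cell differences of -0.21, -0.10 and 0.02. *Cadps2*, the other 1 of the 5, named after its values were seen, averaged 4.64 and 1.64 RPM (1.10 and 0.19).

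Lower genes of the list included tomosyns, which hold syntaxin back from fusion, and scaffolds of the release site. The tomosyn *Stxbp5* averaged 1.19 against 16.4 RPM (log2 ratio -2.99) and *Stxbp5l* 4.69 against 18.2 RPM (-1.76). Among the scaffolds, *Bsn* averaged 15.9 against 67.3 RPM (-2.02) and *Erc2* 3.81 against 10.7 RPM (-1.29). The synaptotagmin *Syt17* averaged 8.51 against 38.8 RPM (-2.07). These 5 genes were lower by 1 or more on the per-cell scale too, from -2.44 for *Bsn* to -1.11 for *Stxbp5l*. By role, the per-cell median was lowest for the 7 priming and scaffold genes (-1.36) and the 6 Sec1/Munc18 and tomosyn genes (-1.34), and -0.76 for the 10 other SNARE genes. By mean RPM the order was different, with a median of -0.60 for the 7 synaptotagmins and like genes, -0.59 for priming and scaffold, -0.29 for Sec1/Munc18 and tomosyns and 0.09 for the other SNARE genes.

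The division by *Ccnb1* asks whether the members differed between Ins1-high GNF4877 cells with more and with less mitotic cyclin, on the same chip. Of the 48 cells below 10 RPM, 8 held a read of *Ccnb1* and 40 none. Averaged per cell, 1 of 9 members was lower by 1 or more in the 11 cells, *Syt4*, and 1 higher, *Rab27a*, beside 5.95% and 12.6% of all genes, so the higher count is no more than that of all genes. *Rab3a*, *Syt7* and *Cplx2* were read in much the same shares. In mean RPM, 2 of 9 members were 2-fold or more lower, *Stx1a* and *Unc13a*, and 0 higher, beside 23.5% lower and 14.7% higher among all genes. The median log2 ratio was -0.54, and -0.10 over all genes. Without the cells with few listed reads it was -0.56. It was -0.04 without cell 1 and -0.15 among members with a mean of 10 RPM or more. On the per-cell scale the members' median was -0.10, beside 0.01 over all genes. *Stx1a* was read in 1 of the 11 and 7 of the 48 cells and *Unc13a* in 1 and 8, so their ratios rest on few cells: without cell 1 that of *Stx1a* went from -1.02 to 0.61, and without cell 93 that of *Unc13a* from -3.54 to -1.25.

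*Syt4* ranged from 0 to 1487 RPM with a median of 73.4 RPM in the 11 cells and from 0 to 1943 RPM with a median of 347 RPM in the 48. The 11 fell apart into 5 cells below 10 RPM and 6 above, whereas 43 of the 48 (89.6%) held 10 RPM or more. The ranges overlapped. The means of 351 and 516 RPM gave a log2 ratio of -0.56, which was -1.12 without cell 36, and the per-cell difference was -2.54, with 0.125% of genes lower. At equal depth *Syt4* was read in 63.6% (30.8% to 89.1%) of the 11 and 91.5% (79.6% to 97.6%) of the 47 thinned cells, with intervals that overlap.

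*Rab27a* ranged from 2.86 to 1166 RPM (median 157 RPM) in the 11 cells and from 0 to 716 RPM (median 118 RPM) in the 48. The groups overlapped, and 8 of the 11 cells lay above the median of the 48. Its log2 ratio was 0.73 (309 and 186 RPM), 0.26 without cell 25, and its per-cell difference 1.25. *Snap25* had means of 401 and 279 RPM, a log2 ratio of 0.52 that was 0.06 without cell 19, and medians of 253 and 238 RPM. *Vamp2* medians were 12.3 and 11.8 RPM, *Rab3a* was read in 36.4% and 37.5% of cells, *Syt7* in 18.2% and 18.8%, and *Cplx2* in 63.6% and 64.6%. The log2 ratios were -0.54 for *Vamp2*, -0.03 for *Rab3a*, -0.15 for *Syt7* and -0.59 for *Cplx2*, and without cell 36 that of *Cplx2* was -1.10. That of *Syt7* rests on few cells: it was -3.37 without cell 63 and 0.52 without cell 64.

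The differences from DMSO were also present in cells with *Ccnb1* below 10 RPM. Against the 78 DMSO cells, the 48 cells below 10 RPM had log2 ratios of -1.62 for *Rab3a*, -1.22 for *Vamp2* and -1.49 for *Cplx2*, and the 11 cells above had -1.64, -1.76 and -2.08. These ratios share the DMSO cells. On the per-cell scale *Rab3a* was at -3.21 and -3.05, *Syt7* at -1.87 and -2.08, and *Syt4* at -1.22 and -3.76. *Stx1a* and *Unc13a* had ratios of 0.59 and 1.21 in the 48 cells, which hold GNF4877 cells 1 and 93, and -0.43 and -2.33 in the 11.

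**Figure D3:**
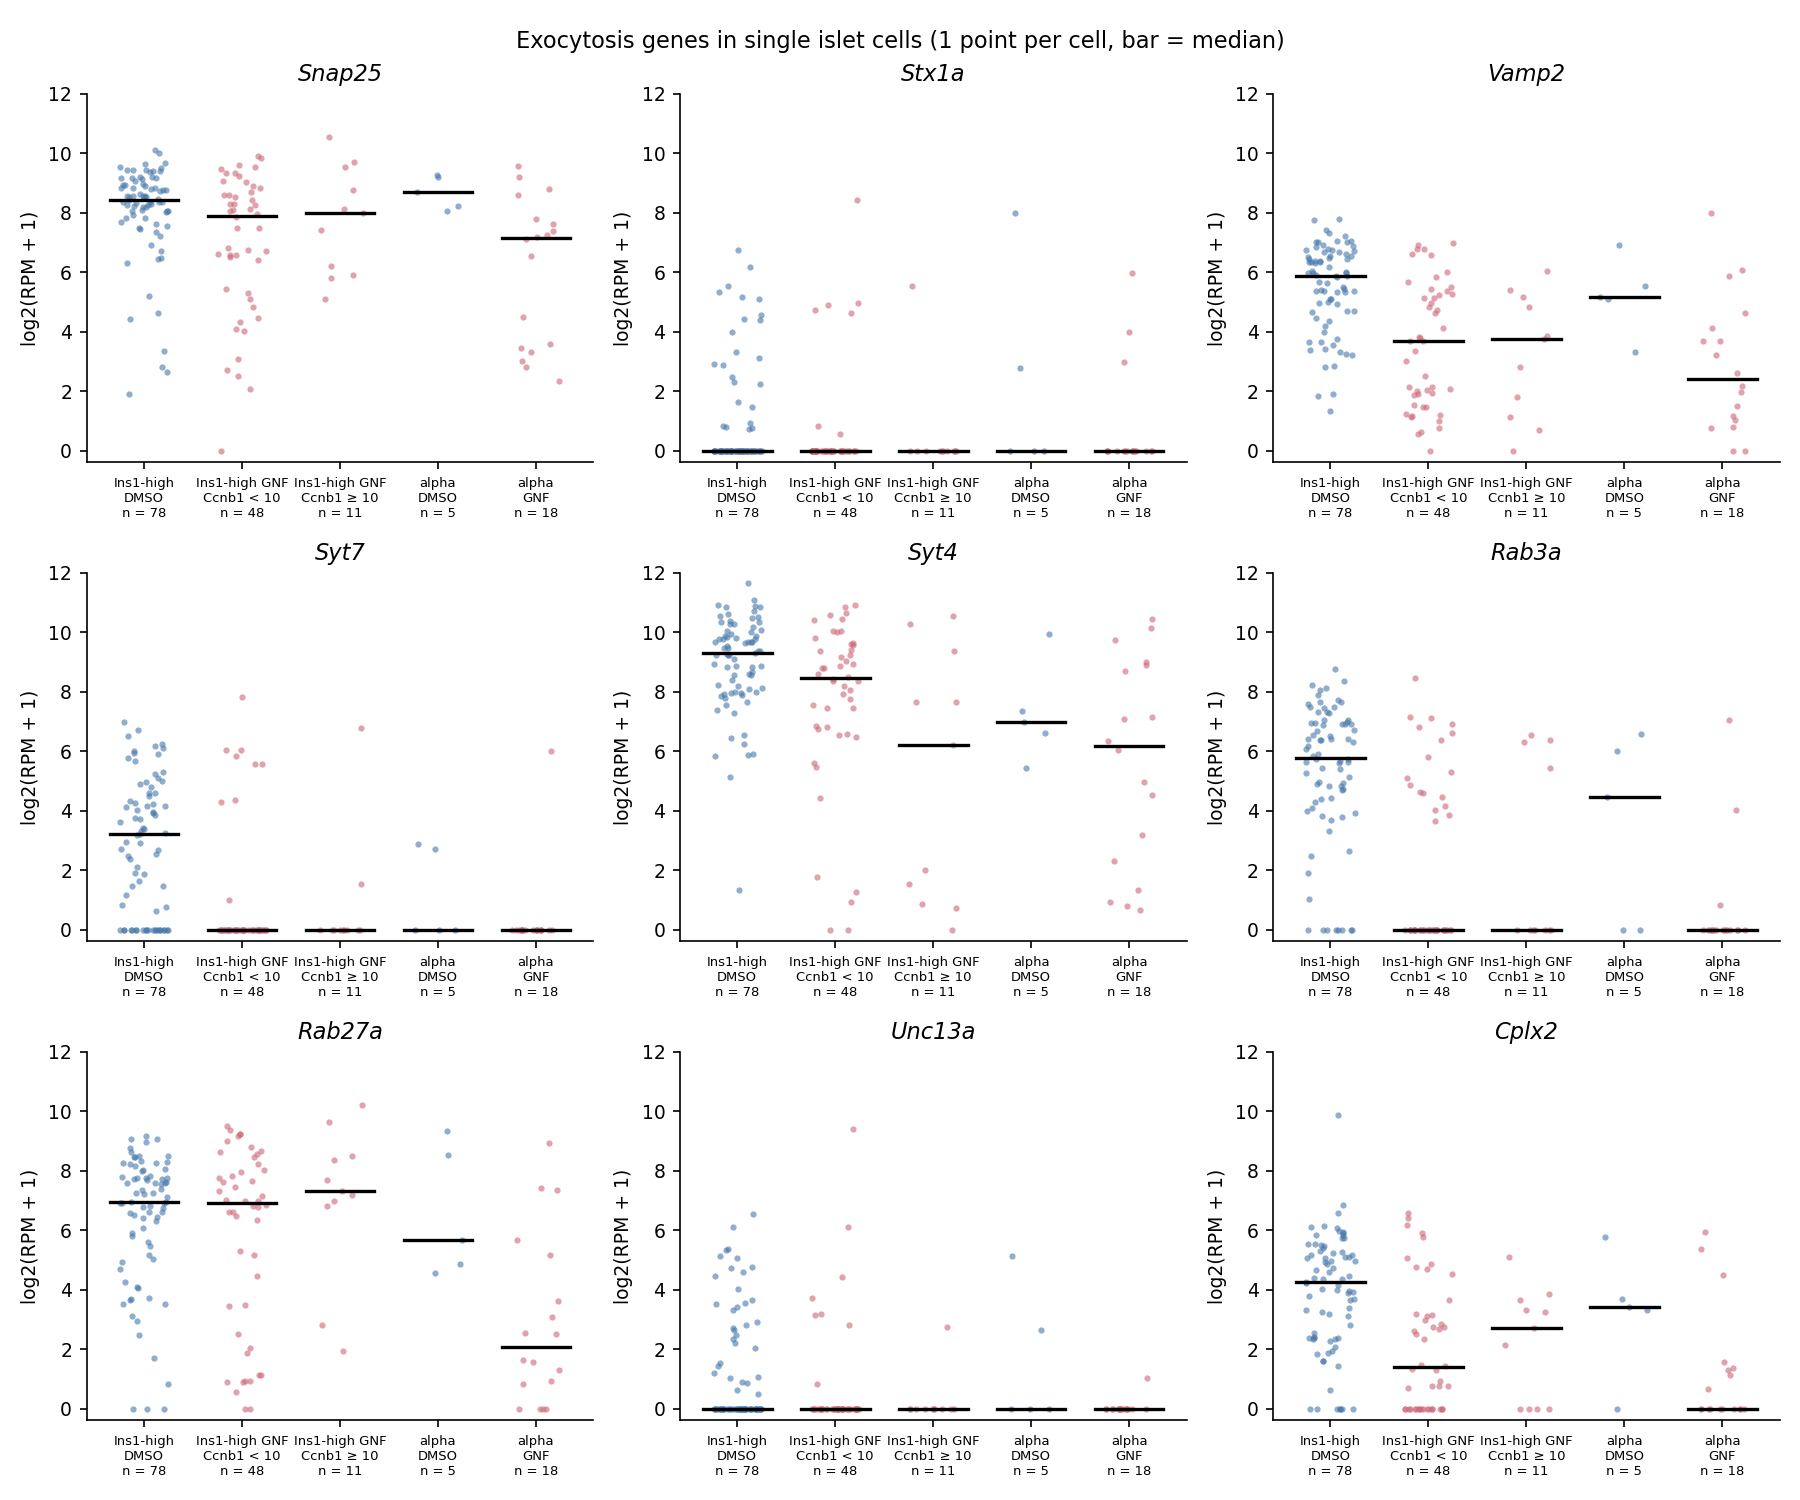
Level of each member as log2(RPM + 1) in single cells (1 point per cell, bar at the median) of the 5 groups: Ins1-high DMSO, Ins1-high GNF4877 with *Ccnb1* below and from 10 RPM, and α-cells of each treatment. *Rab3a* and *Syt7* have medians of 53.8 and 8.22 RPM in Ins1-high DMSO cells and 0 in both sets of Ins1-high GNF4877 cells, and *Syt4* in cells with *Ccnb1* from 10 RPM forms a high and a low set.

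In the division of *Ccnb1* the other exocytosis genes had 12 of 59 higher and 15 lower by 2-fold or more (20.34% and 25.4%, beside 14.7% and 23.5% of all genes). On the per-cell scale 2 were higher and 4 lower (3.39% and 6.78%, beside 12.6% and 5.95%). The 2, named after their values were seen, were the GTPase *Rab3b* (228 and 89.1 RPM, per-cell difference 1.23) and *Sytl4* (297 and 210 RPM, 1.03). Of the 4, *Stx4* (33.4 and 54.3 RPM, -1.03) and *Exoc2* (54.2 and 185 RPM, -1.13) are likewise named after their values were seen. *Mlph* (log2 ratio 3.03, read in 9.09% and 8.33% of cells), *Unc13b* (2.38) and *Stxbp4* (2.29) were higher but had per-cell differences of 0.42, 0.14 and 0.08, and *Stxbp5l* had 2.59 and 0.85. *Exph5* (-3.83), *Myrip* (-3.18) and *Exoc4* (-2.50) were lower, with per-cell differences of -0.20, -0.16 and -0.01. Shares of cells with a read ran the other way for *Stxbp4* (9.09% of the 11 and 22.9% of the 48), *Myrip* (18.2% and 10.4%) and *Exoc4* (27.3% and 12.5%). *Rims2*, a Rab3 effector of the release site, averaged 56.1 against 11.5 RPM (log2 ratio 2.19, per-cell difference 0.64) and was read in 27.3% and 27.1% of cells. *Rab3gap2*, which encodes a subunit of the complex that turns Rab3 off, averaged 2.40 against 50.7 RPM (log2 ratio -3.93, per-cell difference -1.21), and *Napg*, of SNARE recycling, 9.11 against 35.2 RPM (-1.84 and -1.16).

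The comparison of cell types asks how α-cells and Ins1-high cells of the same GNF4877 chip differ in this machinery. The 18 α-cells had lower mean RPM of *Rab27a* and *Rab3a* than the 59 Ins1-high cells. Their medians of *Snap25* and *Syt4* were also lower, while mean *Vamp2* was nearly the same. RPM is a share of all mapped reads, and *Gcg* alone averaged 284382 RPM in these α-cells. *Ins1* averaged 29019 RPM in the Ins1-high cells. The part of this in the lower RPM of other genes was not tested. By mean RPM 4 of 9 members were 2-fold or more lower, *Syt7*, *Rab3a*, *Rab27a* and *Unc13a*, and 0 higher, beside 32.8% lower and 12.2% higher among all genes. On the per-cell scale the 4 were *Snap25*, *Syt4*, *Rab3a* and *Rab27a*, with *Syt7* at -0.59 and *Unc13a* at -0.56, beside 18.9% of all genes lower and 3.17% higher. The median log2 ratio was -0.74 over the members and -0.41 over all genes, so that the members' median was -0.33 relative to it. Without the 1 Ins1-high cell with few listed reads it was -0.76, and without cells with a second hormone -0.99. Detection was lower in α-cells in general, with a median of 5864.5 genes read against 7031 (4003.5 and 4933 after thinning), and the median gene was read in 33.3% against 44.1% of cells.

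*Rab27a* ranged from 0 to 484 RPM with a median of 3.43 RPM in α-cells, against 0 to 1166 RPM and a median of 126 RPM in Ins1-high cells. The ranges overlapped, with 15 of 18 α-cells below the Ins1-high median. The means of 51.96 and 209 RPM gave a log2 ratio of -1.99, the per-cell difference was -3.10, and 0.713% of genes were lower. At equal depth a read was found in 50.0% (26.02% to 73.98%) of α-cells and 75.9% (62.8% to 86.1%) of Ins1-high cells, with intervals that overlap. *Rab3a* was read in 3 of 18 α-cells (16.7%, 3.58% to 41.4%), from 0.781 to 131 RPM, and had a log2 ratio of -1.62. In Ins1-high cells its share was 37.3% (25.04% to 50.9%), and the intervals overlap. *Syt7* was read in 1 of 18 (log2 ratio -1.41) and *Unc13a* in 1 of 18, at 1.05 RPM (-3.79).

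*Snap25* was read in 18 of 18 α-cells, from 4.03 to 755 RPM with a median of 139 RPM, against the Ins1-high median of 246 RPM; 14 of 18 lay below it. Its log2 ratio was -0.70. *Syt4* ran from 0.595 to 1385 RPM with a median of 71.7 RPM, 12 of 18 cells below the Ins1-high median, and a log2 ratio of -0.74. *Vamp2* had means of 25.8 and 25.7 RPM but medians of 4.29 and 11.9 RPM. *Cplx2* was read in 44.4% of α-cells and 64.4% of Ins1-high cells and had a log2 ratio of -0.59. *Stx1a* was read in 16.7% and 13.6%, with a log2 ratio of -0.73 but a per-cell difference of 0.13. Relative to the median of all genes the log2 ratios were -0.29 for *Snap25*, -0.33 for *Syt4* and -0.18 for *Cplx2*. For *Stx1a* and *Vamp2* they were -0.32 and 0.41.

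Single α-cells weighed heavily here. Without α-cell 8, which also held 5480 RPM of *Ppy*, the log2 ratio was -3.86 for *Rab3a*, -2.93 for *Rab27a* and -3.59 for *Syt7*. Without α-cell 69 that of *Vamp2* was -0.98, without α-cell 7 that of *Cplx2* was -1.29, without α-cell 27 that of *Syt4* was -1.10, and without α-cell 20 that of *Stx1a* was -2.04. On the Ins1-high side, leaving out cell 1 gave 0.62 for *Stx1a*, cell 93 -1.61 for *Unc13a* and cell 64 -0.88 for *Syt7*.

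Of the other exocytosis genes, 22 of 59 were lower and 5 higher in α-cells by 2-fold or more, with a median of -0.40. That is 37.3% and 8.47%, near the 32.8% and 12.2% of all genes, whose median was -0.41. On the per-cell scale 12 were lower and 4 higher by 1 or more (20.3% and 6.78%, beside 18.9% and 3.17% of all genes). *Sytl4* averaged 3.25 RPM in α-cells and 226 RPM in Ins1-high cells (log2 ratio -5.74, per-cell difference -4.74), so granuphilin was lower in α-cells together with *Rab27a*. The scaffold *Pclo* averaged 2.82 and 142 RPM (-5.23 and -4.14). *Sytl5*, another Rab27 effector, was higher, at 46.6 and 22.1 RPM (1.04 and 1.73), and so was the mean of *Exph5*, at 29.8 and 11.5 RPM (1.30 and 0.32). *Sytl5* was read in 55.6% and 28.8% of cells, but *Exph5* in 11.1% and 10.2%, so its ratio rests on few cells. The other 3 higher genes, named after their values were seen, were *Exoc8* (2.28), *Sytl2* (1.45) and *Syt16* (1.26). *Erc1* had log2 ratios and per-cell differences of -4.39 and -1.21, and *Mlph* of -4.20 and -0.48. *Myrip* had no read in the 18 α-cells and a mean of 12.1 RPM in the Ins1-high cells, but only 11.9% of these had a read (per-cell difference -0.46).

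In DMSO the 5 α-cells, numbers 33, 67, 89, 90 and 94, each held *Snap25*, at 296, 261, 587, 412 and 610 RPM in that order. *Vamp2* was at 45.3, 34.4, 33.3, 8.88 and 120 RPM, and *Syt4* at 95.9, 42.2, 969, 160 and 124 RPM. These 3 members were thus present in every one of the 5 cells, within the range of Ins1-high DMSO cells. *Rab27a* was at 22.7, 28.2, 635, 370 and 50.0 RPM, split between high cells 89 and 90 and low cells. *Rab3a* was at 62.7, 0, 20.8, 0 and 94.5 RPM, and *Cplx2* at 9.59, 11.7, 0, 8.88 and 52.8 RPM.

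*Syt7* reached 6.26 and 5.56 RPM in cells 67 and 94 and was 0 in the other 3, all below the Ins1-high DMSO median of 8.22 RPM. *Stx1a* was read in cells 89 and 90, at 252 and 5.92 RPM, and *Unc13a* in cells 33 and 89, at 5.23 and 34.3 RPM. Cell 89 thus held the highest *Stx1a*, *Syt4*, *Rab27a* and *Unc13a* of the 5. Set against Ins1-high cells of DMSO, the 5 had 4 of 9 members 2-fold or more lower, from -2.51 for *Syt7* to -1.07 for *Cplx2*, with *Syt4* and *Rab3a* between them, beside 45.5% of all genes. *Stx1a* was the 1 higher, at 2.93 (9.92% of all genes), and *Rab27a* was at 0.45, but cell 89 held 97.7% and 57.4% of their sums, and without it they were at -1.47 and -0.45, *Unc13a* went from 0.22 to -1.72 and *Syt4* from -1.41 to -2.80. With single cells left out the number lower ran from 2 (without cell 67 or 90) to 5 (without cell 89 or 94). On the per-cell scale *Syt7*, *Syt4* and *Rab3a* were lower by 1 or more and *Stx1a* higher, beside 29.5% and 7.94% of all genes. Between α-cells of the treatments, 6 of 9 members had means 2-fold or more lower in GNF4877 and 0 higher, beside 20.3% and 31.2% of all genes. These were *Stx1a* (-3.22), *Unc13a* (-3.07), *Rab27a* (-2.07), *Rab3a*, *Snap25* (-1.22) and *Cplx2* (-1.11). Without cell 89, *Stx1a* turned to 1.18, and *Unc13a* and *Rab27a* went to -1.12 and -1.17, with 5 members lower and 2 higher, *Stx1a* and *Syt4*. Without cell 94, *Cplx2* went to -0.07 and *Rab3a* to -1.26, with 5 lower, and without cell 90 there were 7 lower, *Vamp2* added. Leaving out these cells was chosen after seeing the data. Averaged per cell, 8 of 9 were lower by 1 or more and 0 higher, *Syt7* (-0.78) being the exception, beside 26.7% and 9.41% of all genes. *Syt4* was at 0.06 by mean and -1.57 per cell. With 5 cells from 1 sample a difference between treatments in α-cells was not tested.

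Within a treatment the members varied largely apart from each other. Over the 36 pairs, Spearman's rho across the 78 Ins1-high DMSO cells ran from -0.18 to 0.50 with a median of 0.08, and across the 59 GNF4877 cells from -0.29 to 0.36 with a median of 0.05. The cells share a chip and differ in depth, so these values are a description. *Stx1a* and *Syt7* made the DMSO pair at 0.50, and stood at -0.04 in GNF4877. Among 8466 genes read in 50% or more of the DMSO cells, the genes most like *Syt4* were *Hspa5* (0.66), *Hsp90b1* (0.60) and *Riok3* (0.60); in GNF4877 they stood at 0.49, 0.33 and 0.31. *Syt7* was most like *Pdcd4* (0.55), *Oacyl* (0.54) and *Acin1* (0.54), which stood at 0.03, 0.09 and 0.06 in GNF4877. *Rab3a* was most like *LOC100912239* (0.51, and -0.12 in GNF4877), and *Vamp2*, *Rab27a*, *Unc13a* and *Cplx2* had no gene at 0.5 or more.

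*Snap25* is listed with 3 transcripts, which carried 34.9%, 32.1% and 32.9% of its mean in Ins1-high DMSO cells and 34.5%, 32.7% and 32.8% in GNF4877. The split was thus nearly even in both. How reads that match several of these transcripts were assigned is not given in the sources used here. The split is therefore no measure of transcript use. The other 8 members have a single transcript each. The gene most like *Snap25* was *LOC100912761*, with a rho of 0.93 (DMSO) and 0.96 (GNF4877). Its mean was 11.96% and 9.55% of that of *Snap25*. Whether reads are shared between these sequences was not tested.

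Promoters from RefSeq (GRCr8, the 250 bases before the gene's start) were matched for 7 of the 9 members, *Snap25* and *Syt7* being the others. The GC box GGGCGG, searched on both strands as were all motifs, was in 6 of the 7, *Cplx2*, *Rab27a*, *Rab3a*, *Stx1a*, *Unc13a* and *Vamp2*, and in 30.5% of 33469 promoters. The cAMP response element TGACGTCA was in 0 of 7 (1.59% of all), and TGACG, which lies within it, in 4 of 7, *Rab3a*, *Syt4*, *Unc13a* and *Vamp2* (18.2% of all). The E-box CACGTG was in 0 of 7 (5.59%). Of the parts of RE1, the element of the neuronal repressor REST, GGACAGC was in the promoter of *Unc13a* alone (5.30%) and TTCAGCACC in 0 of 7 (0.305%). A match of letters is a description and not a binding site. The promoters of the 3 members with lower means in GNF4877 are shown with *Rab27a*, whose mean was not lower, because all 4 hold the GC box, set in capitals on either strand. Their GC content was 68% for *Vamp2* (chr10:54292539-54292788, + strand), 60.4% for *Rab3a* (chr16:18722274-18722523, - strand), 50.8% for *Cplx2* (chr17:10236754-10237003, - strand) and 63.6% for *Rab27a* (chr8:82663123-82663372, + strand), beside a median of 51.2% over all promoters.
Vamp2: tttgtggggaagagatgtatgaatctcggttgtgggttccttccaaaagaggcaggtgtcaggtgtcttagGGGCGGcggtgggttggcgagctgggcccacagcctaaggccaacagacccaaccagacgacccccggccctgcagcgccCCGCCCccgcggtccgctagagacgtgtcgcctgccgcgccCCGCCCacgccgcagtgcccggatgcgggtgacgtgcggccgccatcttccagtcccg
Rab3a: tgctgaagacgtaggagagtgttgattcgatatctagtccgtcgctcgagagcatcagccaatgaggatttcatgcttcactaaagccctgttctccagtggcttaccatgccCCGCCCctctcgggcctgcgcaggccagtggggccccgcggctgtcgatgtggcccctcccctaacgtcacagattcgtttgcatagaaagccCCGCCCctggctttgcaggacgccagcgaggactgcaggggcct
Cplx2: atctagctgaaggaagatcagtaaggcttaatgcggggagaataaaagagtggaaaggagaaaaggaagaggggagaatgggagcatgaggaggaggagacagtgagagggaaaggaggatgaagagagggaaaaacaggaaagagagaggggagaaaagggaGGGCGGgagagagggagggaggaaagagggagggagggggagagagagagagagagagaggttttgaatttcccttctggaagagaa
Rab27a: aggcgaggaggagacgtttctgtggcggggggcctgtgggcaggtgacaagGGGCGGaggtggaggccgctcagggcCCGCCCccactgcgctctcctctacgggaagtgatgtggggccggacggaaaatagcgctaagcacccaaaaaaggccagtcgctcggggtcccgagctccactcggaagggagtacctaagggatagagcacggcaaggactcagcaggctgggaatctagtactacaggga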

How the data were processed

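RPM of 27586 transcripts in 170 cells were used as the authors deposited them; the submitters' notes name CASAVA 1.8.2, BWA 0.5.9 and SAMtools 0.1.19, and that cells with over 100000 mapped reads were kept. By those notes reads were aligned to the mouse transcriptome, but the transcripts listed are from rat RefSeq, and the genome build is not given in the sources used here. Values at the floor of 0.01 were set to 0 and transcripts of a symbol summed. Ratios are log2 of (mean RPM + 1) over (mean RPM + 1). Genes with a mean of 1 RPM or more over all cells were kept. No test between groups was run, since each treatment is 1 sample. The submitters checked ports by microscope and kept those with 1 cell; no doublets were searched for here. A list of markers is not reported here. The members and lists were chosen with earlier results of these data known. Other genes named are those past 2-fold with a mean of 10 RPM or more in the higher group, at most 5 in each direction, and for each member up to 3 genes with the highest rho, if 0.5 or more. The pseudocount, the scale, the depth, the thresholds, the filter, the transcripts of a symbol, cells with a second hormone and single cells were varied. The ratio of means between treatments in Ins1-high cells was tested on simulated Poisson reads, without a pseudocount. The other steps were not tested in this way. The work was done in Python 3.11.15 with scipy 1.17.1, pandas 2.3.3, numpy 2.4.6 and matplotlib 3.10.9.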

Additional observations from a re-analysis of the deposited data

Results flagged for a closer look

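Some cells outside the comparisons held members above the level of a like cell or, with no like cell, above a few reads. Cells with *Ppy* as the main hormone were 1 in DMSO, cell 29, and 3 in GNF4877. Against 33.2 RPM of *Vamp2* and 88.5 RPM of *Syt4* in DMSO cell 29, GNF4877 cell 62 held 269 RPM of *Vamp2* and 723 RPM of *Syt4*, and GNF4877 cell 73 held 153 RPM of *Syt4*. GNF4877 cell 33 held 2.99 RPM of *Vamp2* and 2.39 RPM of *Syt4*, and *Vamp2* in GNF4877 cell 73 was at 0.808 RPM. Several other members were lower in all 3: DMSO cell 29 held 101 RPM of *Rab3a*, 53.7 RPM of *Stx1a*, 192 RPM of *Rab27a* and 163 RPM of *Snap25*, and the 3 held 0 of *Rab3a* and *Stx1a*, at most 0.597 RPM of *Rab27a* and 19.4 to 93.99 RPM of *Snap25*. The only cell with *Sst* as its main hormone, GNF4877 cell 49, held 797 RPM of *Snap25*, 64.7 RPM of *Stx1a*, 5.07 RPM of *Syt7*, 270 RPM of *Syt4* and 3.17 RPM of *Cplx2*, each above the level that 3 reads would give. In the same cell *Vamp2* was at 1.27 RPM, *Rab27a* at 0.634 RPM, *Rab3a* and *Unc13a* at 0 and *Ccnb1* at 1460 RPM. No DMSO cell of that kind was present. These are single cells and nothing was tested. Among the 5 DMSO α-cells no member had a cell beyond Dixon's critical value on the scale of log2(RPM + 1), where chance gives about 1 in 20 groups. On the RPM scale, added after the data were seen, 4 members did: *Stx1a*, *Syt4* and *Unc13a* in cell 89 and *Cplx2* in cell 94.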

How the results depend on the processing

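Each treatment is 1 sample, and no paired analysis was possible because no animal or culture is named. Under the alternatives 288 values of members' ratios stayed within 1.5-fold of the reported one, 47 moved further and 1, of a ratio of 2-fold or more, changed sign. Of ratios below 2-fold, 22 values changed sign, among them *Stx1a*, *Rab27a* and *Unc13a* between treatments on the per-cell scale. For Ins1-high GNF4877 over DMSO cells, the number of members 2-fold higher went from 0 to 1 with a pseudocount of 0.1 RPM and with *Ins1* of 10000 RPM or more (*Unc13a*), to 2 without cells with a second hormone (*Stx1a*, *Unc13a*), and ranged from 0 to 1 with single cells left out (1 without DMSO cell 1, 12, 15, 21, 45 or 92). The number lower was 4 without GNF4877 cell 64 and after thinning (*Syt7* added) and without cell 93 (*Unc13a* added). *Vamp2*, *Rab3a* and *Cplx2* were lower under each alternative tried. The per-cell scale gave a median of -1.69 and 5 lower. For the division by *Ccnb1*, the number lower went from 2 to 1 with a pseudocount of 10 RPM, on the per-cell scale, after thinning and without second hormones, to 0 among members with a mean of 10 RPM or more, since *Stx1a* and *Unc13a* do not pass it (per cell the 1 was *Syt4*, otherwise *Unc13a*), and ranged from 1 to 4 with single cells left out. It was 4 without cell 36, and 1 without cell 1, 12, 16, 17, 19, 25, 30, 31, 40, 50, 55, 72, 78 or 96. The number higher went from 0 to 1 on the per-cell scale (*Rab27a*) and with any *Ccnb1* above 0 (*Syt7*, from -0.15 to 1.92), where 3 were lower (*Syt4* added). *Stx1a* went from -1.02 to 0.61 without cell 1 and was -3.37 without cell 36, *Unc13a* was -1.25 without cell 93, and *Syt7* -3.37 without cell 63 and 0.52 without cell 64. For α-cells the median ranged from -1.35, without cell 20, to -0.67 with single cells left out, and the number lower from 3 (without cell 64) to 5 (without cell 7, 20, 27 or 77). It was 3 with a pseudocount of 10 RPM and among members with a mean of 10 RPM or more. Leaving out cells with under 50% of reads on listed transcripts was chosen after seeing the data. By construction a pseudocount of 10 RPM draws ratios of low genes towards 0; otherwise the cause was not tested. Of the shares, 184 stayed within their interval and 59 moved beyond it, 27 of them at a minimum of 10 RPM and 20 after thinning, so low-level reads carry part of the shares.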

Other observations

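The single Ins1-high DMSO cell with *Ccnb1* of 10 RPM or more, cell 46, held 49.4 RPM of *Ccnb1* and 10713 genes with a read, the most of the Ins1-high DMSO cells. Its *Syt4* was 467 RPM, *Snap25* 23.8 RPM, *Cplx2* 19.4 RPM, *Syt7* 12.3 RPM, *Vamp2* and *Rab27a* 11.5 RPM each, *Rab3a* 5.29 RPM and *Stx1a* 0.881 RPM, and *Unc13a* had no read. The GNF4877 α-cell with *Ccnb1* of 287 RPM, cell 20, held 61.7 RPM of *Stx1a*, 16.4 RPM of *Vamp2*, 7.03 RPM of *Snap25* and 3.91 RPM of *Syt4*, with *Rab3a* and *Rab27a* at 0.781 RPM each and *Syt7* and *Unc13a* at 0.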
